A study of Mus musculus with 9 samples.

Results

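The mouse genes of the autophagy machinery and its cargo receptors were followed in dendritic cells given the Toll-like receptor 7 agonist R837 (imiquimod), with or without spermidine. The set held 41 genes, chosen by name for their roles, with earlier results of these data known, and matched by symbol. All 41 were found among the 52476 genes listed, and all 41 passed the filter on low values. The samples were monocyte-derived dendritic cells of C57BL/6 mice, sorted by flow cytometry after bone marrow monocytes had been grown for 7 days with GM-CSF (100 ng/mL) plus interleukin 4 (IL-4, at 50 ng/mL). There were 3 groups of 3 mRNA-seq libraries. The R837 + spermidine group received both agents for 18 h, the R837 group received R837 alone for 18 h, and the control group is labelled as not stimulated. The treatment protocol adds 24 h of priming with interferon α before R837. Whether the control cells were primed is not said, so R837 against control may compare interferon priming and R837 together. The sources used here give no dose of R837 or spermidine, and no group received spermidine without R837. The labels do not say that replicates came from separate cultures or animals, so the spread behind each p-value is that of these libraries and may be technical.

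Macroautophagy encloses cytoplasm in a double membrane that fuses with the lysosome. The ULK kinase complex starts the process and a class III phosphatidylinositol 3-kinase complex marks the membrane. ATG9 vesicles and ATG2 deliver lipid, and a pair of ubiquitin-like conjugation systems attaches ATG8 proteins (LC3 and GABARAP) to it. Receptors such as p62 (Sqstm1) then tie cargo to the ATG8 proteins, and transcription factors of the MiT/TFE family switch on many of the genes. In dendritic cells autophagy is known for delivering cytosolic antigens and Toll-like receptor ligands to lysosomal compartments. Spermidine is a natural polyamine known to induce autophagy. The libraries measured transcripts, not the lipidated proteins or the flux through the pathway.

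Transcripts were measured as FPKM, fragments scaled by transcript length and by the number mapped, so levels can be compared between genes. The files hold no counts, and the depth estimated from the low values was between 10700000 and 14500000 units per library. The summed FPKM of 12 dendritic cell markers was 8692 to 9097 in R837 + spermidine libraries, 8518 to 8832 in R837 libraries and 9750 to 10236 in control libraries, and 1 of the 12, Cd209a, was listed at 0 in every library. In the same groups 5 macrophage markers summed to between 982 and 1120, between 1086 and 1267, and between 1071 and 1237 FPKM. These sums rest mostly on Lyz2, Cd74 and Cd68, and single markers moved in both directions. In R837 against control the dendritic cell markers Ccl17, Ccl22, Irf4 and Zbtb46 rose by 1.38, 1.43, 1.37 and 0.90 (log2), while Lyz2 and Mgl2 fell by 0.47 and 0.45 and the macrophage markers Mertk, Fcgr1 and Mrc1 fell by 1.15, 0.56 and 0.57. With spermidine relative to R837, Ccl17, Ccl22 and Irf4 fell by 0.85, 0.34 and 0.29, and Fcgr1 and Mrc1 rose by 0.34 and 0.47. Each of these changes was called by limma both as deposited and with median-of-ratios scaling. T cell, B cell and NK cell marker lists summed to at most 3.83 FPKM in any library. Mcpt8, the 1 mast cell and basophil marker tested, fell relative to control by 0.97 with R837 and 1.01 with R837 + spermidine (limma adjusted p = 0.0023 and 0.0017). The neutrophil marker Camp had 5.19, 7.00 and 36.0 FPKM in R837 libraries, against 3.52, 2.21 and 2.57 FPKM in control (1.72, limma adjusted p = 0.033). Ltf, the other neutrophil marker tested, was not called there (0.60, adjusted p = 0.34). Of the R837 libraries, 2 stood apart: the 4 erythroid markers summed to at most 0.0917 FPKM in R837 + spermidine libraries, to as much as 1843 FPKM in R837 libraries and to at most 11.04 FPKM in control libraries. Hbb-bs, a haemoglobin gene, reached 98.0 FPKM in R837 replicate 2 and 815 in R837 replicate 3, and the neutrophil list reached 129.5 FPKM in R837 replicate 3. R837 replicate 2 also had the lowest Itgam, at 37.1 FPKM. The part of these cells and markers in the results was not tested, and the results are given below with and without these libraries where that matters. In bulk RNA, fewer cells of a type and less RNA per cell cannot be told apart.

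With spermidine added to R837, 4 of the 41 genes rose and 2 fell relative to R837 alone. Bnip3 (a mitophagy receptor), Tfe3 (a transcription factor of lysosome and autophagy genes), Ulk1 (the initiating kinase) and Gabarapl1 (an ATG8 protein) rose. Wipi1 (a phosphoinositide reader) and Atg9a (the lipid scramblase of ATG9 vesicles) fell. Genes were called at a limma adjusted p under 0.05 over all 11768 genes tested, where 5.60% were called higher and 8.00% lower. The members' shares were 9.76% higher and 4.88% lower. The median difference of the 41 genes was 0.13 on the log2(FPKM + 1) scale, beside -0.02 for all tested genes. Of the 41, 27 (65.9%) were above 0, beside 46.9% of all tested genes. Only the Bnip3 and Tfe3 calls were kept in all 18 alternative analyses.

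R837 alone, relative to control, gave 3 rises and 18 falls among the 41 genes. Sqstm1 and Optn (receptors for ubiquitin-marked cargo) and Atg9a rose. Of all tested genes, 13.6% were called higher and 29.5% lower, against 7.32% and 43.9% of the members. The median difference of the members was -0.28, beside -0.17 for all genes. With median-of-ratios scaling, which moved the median of all genes by 0.15 to -0.02, the members had 4 rises and 8 falls and a median of -0.12. Of the 11768 tested genes, 2135 were called higher and 1941 lower with that scaling. The share of higher calls among the members' calls was then 33.3%, against 14.3% as deposited. For all genes it was 52.4% with that scaling, against 31.6% as deposited. The 8 falls called under both scalings were Ulk2, Atg13, Atg7, Atg12, Gabarapl1, Calcoco1, Bnip3l and Tecpr1.

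R837 + spermidine against control gave 4 rises (Sqstm1, Bnip3, Optn and Rb1cc1) and 12 falls, where 14.1% of all tested genes were called higher, 32.7% lower and 46.8% in either direction. With median-of-ratios scaling, which moved the median of all genes by 0.16, there were 8 rises, adding Ulk1, Ambra1, Atg9a and Tfe3, and 6 falls. Of the 11768 tested genes, 2395 were called higher and 2168 lower with that scaling. The share of higher calls among the members' calls was then 57.1%, against 25.0% as deposited, and for all genes 52.5% against 30.1%. This comparison shares its libraries with the other 2, so its values are set beside theirs and are not a further replicate of them.

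Some members that were not called as analysed were called when 1 library was left out. In R837 against control these included Ulk1 (-0.24, limma adjusted p = 0.047) and Atg5 (-0.22, adjusted p = 0.027) without R837 replicate 2. Bnip3 (-0.41, adjusted p = 0.044) was called lower without control replicate 2, as was Tfe3 (-0.28, adjusted p = 0.048), which was also called without R837 replicate 1 (-0.28, adjusted p = 0.043). In R837 + spermidine against control, Pik3r4 (-0.22, adjusted p = 0.032) and Tax1bp1 (-0.22, adjusted p = 0.014) were called without R837 replicate 2. Leaving out that library changes only the shared estimate of spread and the genes tested in this comparison, and both differences stayed as they were. Wipi1 (-0.29, adjusted p = 0.043) was called there without R837 + spermidine replicate 1.

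**Figure D1:**
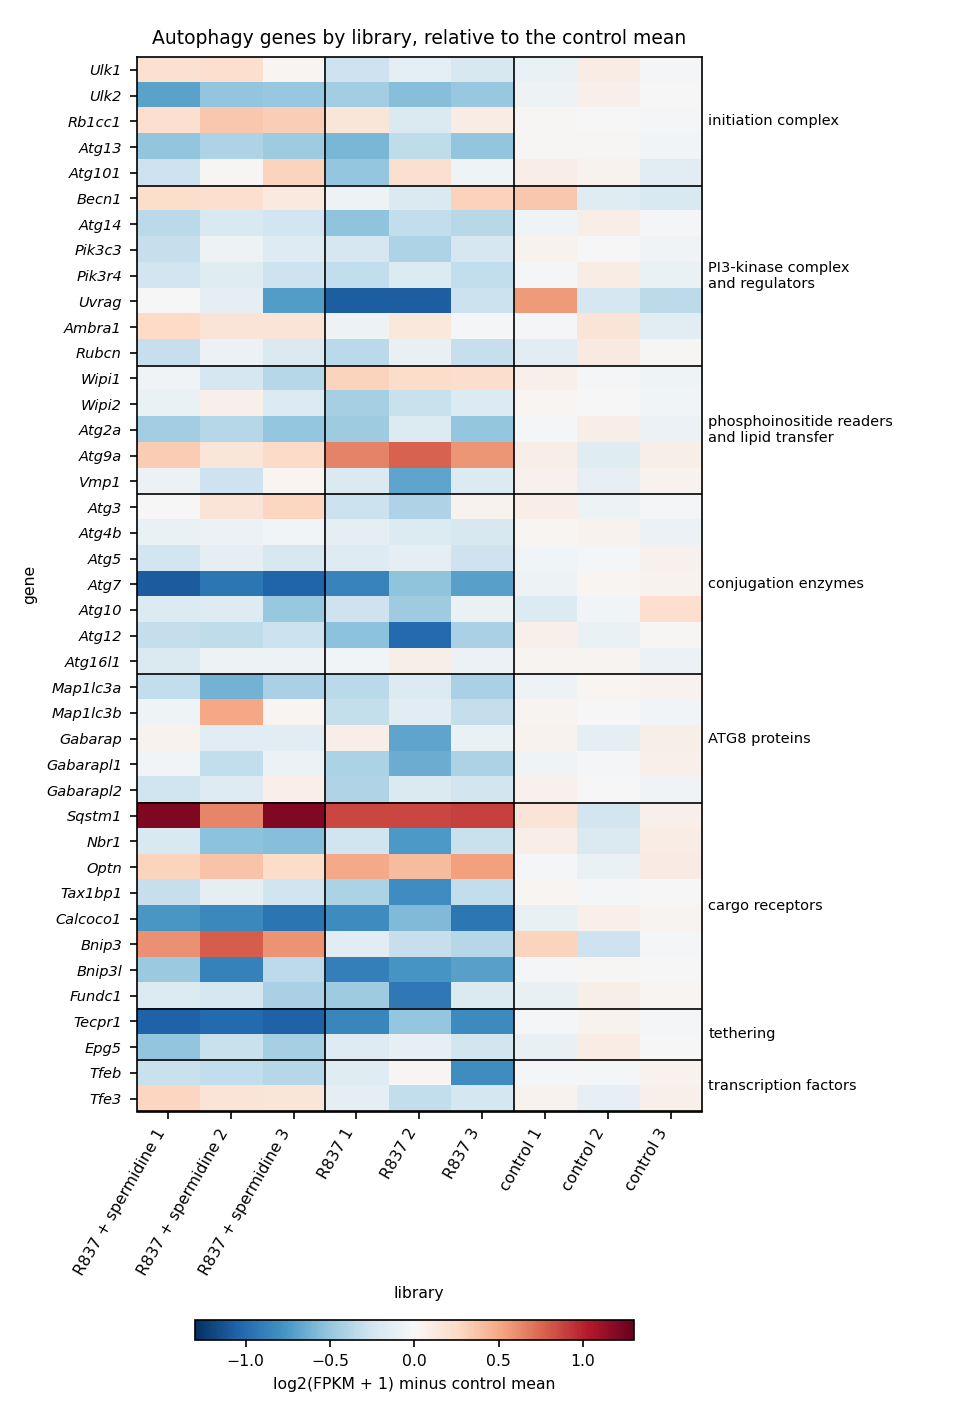
Difference in log2(FPKM + 1) from the control mean (colour scale) for the 41 autophagy genes (rows, grouped by role) in each of the 9 libraries (columns). Sqstm1, Optn and Atg9a are above the control mean in all 6 treated libraries, Atg7, Tecpr1 and Calcoco1 are below it in all 6, and Bnip3 is above it in all 3 R837 + spermidine libraries and below it in all 3 R837 libraries.

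**Figure D2:**
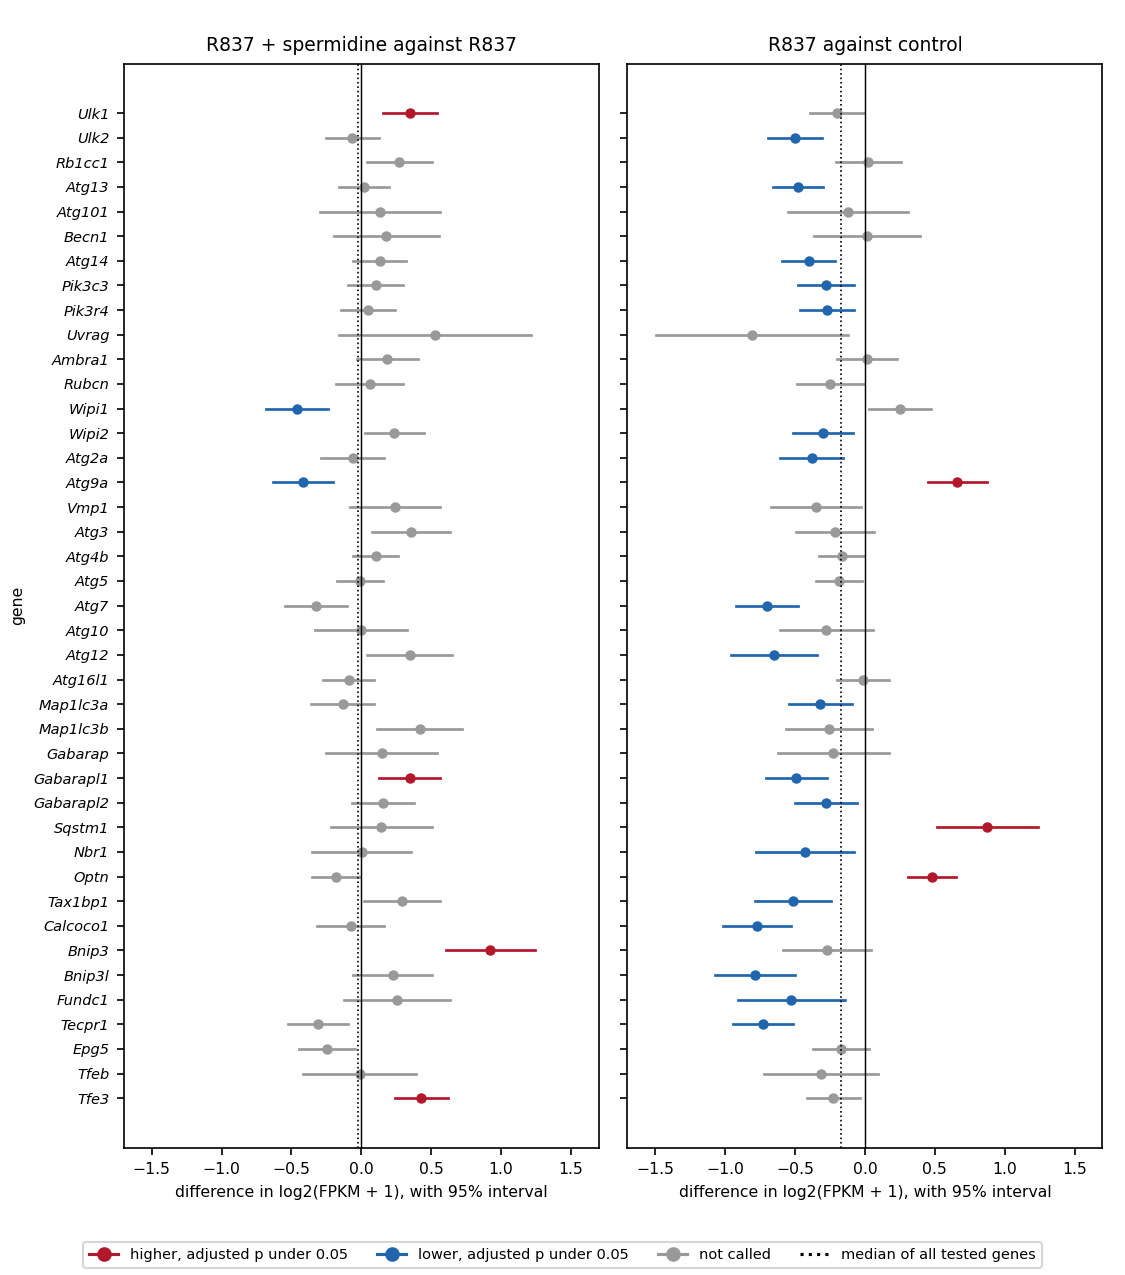
Difference in log2(FPKM + 1), with its 95% interval (horizontal axis), for each autophagy gene (rows) in R837 + spermidine against R837 (left) and R837 against control (right). On the left 4 genes are called higher and 2 lower, and on the right 3 are called higher and 18 lower; the dotted line is the median of all tested genes, -0.02 on the left and -0.17 on the right.

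In the initiation complex, Ulk1 rose with spermidine. It had 15.3, 15.6 and 13.5 FPKM in R837 + spermidine libraries, against 10.8, 12.1 and 11.3 FPKM in R837 libraries, and 12.4, 14.2 and 13.1 FPKM in control libraries. Every R837 + spermidine library was above every R837 library, while the control libraries overlapped with the R837 + spermidine ones. The difference from R837 was 0.34 ± 0.09 (log2, SE; n = 3 each; limma adjusted p = 0.031). The call was lost without R837 + spermidine replicate 1 or 2, R837 replicate 1 or 3, or control replicate 3, with adjusted p between 0.052 and 0.11 and differences between 0.31 and 0.34. Ulk1 lies on chromosome 5 from 110784488 to 110810097.

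Ulk2, the second ULK kinase gene, had 3.95, 4.60 and 4.70 FPKM with R837 + spermidine, 4.85, 4.44 and 4.67 FPKM with R837, and 6.62, 7.37 and 7.01 FPKM in control. Both treated groups lay below every control library and overlapped with each other. Ulk2 fell by 0.50 on the log2 scale in R837 against control (limma adjusted p = 0.0013), and the spermidine difference was -0.06 (95% interval -0.25 to 0.13). Atg13, the regulatory subunit of the complex, had 25.4, 27.5 and 26.5 FPKM with R837 + spermidine, 24.1, 29.0 and 25.5 FPKM with R837, and 37.1, 37.3 and 35.9 FPKM in control. It too was below control in all 6 treated libraries, by 0.48 on the log2 scale with R837 (limma adjusted p = 0.0013), and its spermidine difference was 0.02 (95% interval -0.16 to 0.20).

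Rb1cc1 encodes FIP200, the scaffold of the complex. It had 3.17, 3.56 and 3.47 FPKM with R837 + spermidine, 3.01, 2.15 and 2.83 FPKM with R837, and 2.62, 2.60 and 2.54 FPKM in control. The R837 + spermidine libraries lay above all the others. The call against control (0.29, limma adjusted p = 0.042) was lost in 9 alternatives, among them without any one of the R837 + spermidine or control libraries, where adjusted p was between 0.055 and 0.12. Rb1cc1 shares 558 exon bases with the overlapping antisense gene 4732440D04Rik, which ranged from 0.264 to 2.14 FPKM. Atg101, a partner of ATG13, ranged from 14.8 to 26.5 FPKM over the 9 libraries and was not called in any comparison.

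Of the 7 genes of the phosphatidylinositol 3-kinase complex and its regulators, none was called with spermidine, where 13.6% of all tested genes were called. All 7 differences were above 0, with a median of 0.13, where 46.9% of all tested genes were above 0. The 7 differences rest on the same R837 libraries and are not independent. Becn1, the beclin 1 subunit, had 10.4, 10.3 and 9.60 FPKM with R837 + spermidine, 8.26, 7.48 and 10.9 FPKM with R837, and 11.4, 7.71 and 7.44 FPKM in control. The 3 groups overlapped, and the spermidine difference was 0.18 (95% interval -0.20 to 0.56), or 0.07 without R837 replicate 2 and 0.32 without R837 replicate 3. Becn1 shares 3104 exon bases with Cntd1 on the other strand, and the sources used here do not say whether reads were counted by strand. Cntd1 was itself called higher with spermidine (0.54, limma adjusted p = 0.046), a call lost in 13 of 17 alternatives.

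Atg14, which directs the complex to autophagosome formation, had 12.0, 13.4 and 12.9 FPKM with R837 + spermidine, 10.5, 12.3 and 11.9 FPKM with R837, and 14.8, 16.5 and 15.3 FPKM in control. Both treated groups lay below control, by 0.27 (limma adjusted p = 0.027) with R837 + spermidine and by 0.40 (limma adjusted p = 0.0044) with R837. Pik3c3, the catalytic subunit VPS34, had 8.34, 9.98 and 9.25 FPKM with R837 + spermidine, 8.88, 7.70 and 8.87 FPKM with R837, and 10.8, 10.5 and 10.1 FPKM in control. Pik3r4, its regulatory subunit VPS15, had 3.42, 3.71 and 3.37 FPKM with R837 + spermidine, 3.22, 3.63 and 3.21 FPKM with R837, and 4.20, 4.62 and 3.96 FPKM in control. Both were called lower in R837 against control, with differences of -0.28 and -0.27 (limma adjusted p = 0.030 and 0.029). None of these 3 falls was called with median-of-ratios scaling, where the R837 differences were -0.23, -0.11 and -0.13 and that of Atg14 in R837 + spermidine was -0.08. The Atg14 call in R837 + spermidine was also lost without R837 + spermidine replicate 1 (-0.23) or 3 (-0.27) or control replicate 2 (-0.23) or 3 (-0.28). The Pik3c3 call was also lost without R837 replicate 2 (-0.22) or any one control library (-0.26, -0.28 and -0.30), and the Pik3r4 call without R837 replicate 1 or 3 (-0.25 each) or control replicate 1 or 2 (-0.28 and -0.22).

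Uvrag, a subunit of the alternative complex that acts in endosome and autophagosome maturation, had the widest spread of the 41 genes in each group. It had 9.42, 8.59 and 5.28 FPKM with R837 + spermidine, 3.94, 3.95 and 7.58 FPKM with R837, and 14.3, 7.96 and 7.24 FPKM in control. The coefficient of variation was 28.2%, 40.7% and 39.4% in these groups, against medians over the 41 genes of 8.08%, 9.62% and 6.01%. Uvrag transcripts hold a stretch of 345 bases that is 95.1% identical to Mettl6, which ranged from 12.7 to 20.6 FPKM. Uvrag was not called as analysed (R837 against control -0.81, limma adjusted p = 0.057). Without R837 replicate 3 that difference was -1.07 with an adjusted p of 0.020. Without R837 + spermidine replicate 3, which changes only the shared estimate of spread and the genes tested, the adjusted p was 0.049. Ambra1, an activator of the complex, ranged from 9.43 to 12.8 FPKM and Rubcn, its inhibitor rubicon, from 3.33 to 4.99 FPKM. Neither was called as analysed, but Rubcn in R837 against control, -0.25 as analysed, was called without R837 replicate 2 (-0.32, adjusted p = 0.032).

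Atg9a and Wipi1 were the members that fell with spermidine. Atg9a had 13.8, 12.1 and 12.9 FPKM with R837 + spermidine, 17.3, 19.1 and 16.5 FPKM with R837, and 11.4, 9.56 and 11.4 FPKM in control. The R837 libraries were the 3 highest, the control libraries the 3 lowest, and the R837 + spermidine libraries lay between them without overlap. With spermidine Atg9a fell by 0.42 relative to R837 (SE 0.09, limma adjusted p = 0.022), and in R837 it rose by 0.66 over control (limma adjusted p = 0.00049). Both differences use the same R837 libraries. The R837 + spermidine difference from control was 0.25 (adjusted p = 0.058). It was called without R837 replicate 2 (adjusted p = 0.035), which changes only the shared estimate of spread and the genes tested. The call with spermidine was lost without R837 + spermidine replicate 2 or 3 or R837 replicate 1, with differences of -0.37, -0.42 and -0.43 and adjusted p of 0.083, 0.075 and 0.051. Atg9a (chromosome 1 from 75180860 to 75192196) shares exon bases with Gm29253, which was at most 1.19 FPKM in any library, and with Ankzf1.

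Wipi1 had 2.09, 1.76 and 1.47 FPKM with R837 + spermidine, 2.90, 2.76 and 2.75 FPKM with R837, and 2.34, 2.17 and 2.08 FPKM in control. Its R837 libraries were above all the others, and the R837 + spermidine libraries overlapped with control. Wipi1 fell by 0.46 with spermidine relative to R837 (SE 0.10, limma adjusted p = 0.017), and R837 against control was 0.25 (adjusted p = 0.067), or 0.38 (adjusted p = 0.017) with median-of-ratios scaling. At such low levels the added 1 FPKM understates the change, and counting error is large. The call with spermidine was lost without R837 + spermidine replicate 2 or 3 or R837 replicate 1, with differences of -0.46, -0.38 and -0.44. Wipi2, the reader that recruits ATG16L1, was lowest with R837. It had 8.28, 9.37 and 7.76 FPKM with R837 + spermidine, 6.32, 7.06 and 7.77 FPKM with R837, and 9.06, 8.95 and 8.66 FPKM in control. Its fall in R837 against control (-0.30, limma adjusted p = 0.029) was lost with median-of-ratios scaling (-0.14) and without R837 replicate 1 (-0.23) or any one control library (-0.29, -0.30 and -0.32), and its spermidine difference of 0.23 was not called (adjusted p = 0.13).

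Atg2a, the lipid transfer protein that bridges the membranes, had 15.4, 16.5 and 14.9 FPKM with R837 + spermidine, 15.3, 18.9 and 14.9 FPKM with R837, and 21.3, 23.0 and 20.4 FPKM in control. All 6 treated libraries were below all control libraries. The differences from control were -0.44 (limma adjusted p = 0.0059) with R837 + spermidine and -0.38 (limma adjusted p = 0.013) with R837, or -0.25 and -0.21 with median-of-ratios scaling, where neither was called. The R837 call was also lost without control replicate 2 (-0.34). Vmp1, a membrane scramblase of the endoplasmic reticulum, ranged from 14.2 to 24.4 FPKM and was not called. Its difference in R837 against control was -0.35 (adjusted p = 0.074), or -0.18 without R837 replicate 2, and its spermidine difference was 0.24, or 0.08 without that library.

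Among the 7 conjugation enzymes, none was called with spermidine, where 13.6% of all tested genes were called. Atg7, the E1-like enzyme that activates both ATG12 and the ATG8 proteins, had the widest separation from control. It had 6.39, 7.13 and 6.56 FPKM with R837 + spermidine, 7.53, 9.87 and 8.59 FPKM with R837, and 13.9, 14.9 and 15.1 FPKM in control. The 3 groups did not overlap. Atg7 fell by 1.02 in R837 + spermidine (limma adjusted p = 5.5e-05) and by 0.70 in R837 (limma adjusted p = 0.00045) relative to control, and both calls were kept in all 18 alternatives. The spermidine difference of -0.32 (95% interval -0.55 to -0.10) had an adjusted p of 0.061, and it was called without R837 replicate 1 (-0.41, adjusted p = 0.035).

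Atg12, the ubiquitin-like protein joined to ATG5, had 60.4, 59.8 and 61.9 FPKM with R837 + spermidine, 51.8, 37.0 and 56.0 FPKM with R837, and 78.9, 70.9 and 76.4 FPKM in control. The R837 libraries were the lowest, with replicate 2 furthest down. Atg12 fell by 0.65 in R837 against control (limma adjusted p = 0.0043), or by 0.48 without R837 replicate 2, where the call was kept. The R837 + spermidine difference from control was -0.31 (adjusted p = 0.092). Without R837 replicate 2, which changes only the shared estimate of spread and the genes tested, its adjusted p was 0.0025. Atg5, the partner of ATG12, had 15.0, 16.4 and 15.5 FPKM with R837 + spermidine, 15.9, 16.5 and 14.8 FPKM with R837, and 17.5, 17.9 and 18.7 FPKM in control. Both treated groups were below control, by 0.20 with R837 + spermidine (limma adjusted p = 0.049), a call lost in 12 alternatives. These included leaving out R837 replicate 1 or any one R837 + spermidine or control library, where the difference was between -0.23 and -0.17. The spermidine difference of Atg5 was -0.01 (95% interval -0.17 to 0.15). Atg3 (the E2-like enzyme for ATG8), Atg4b (the ATG8 protease), Atg10 (the E2-like enzyme for ATG12) and Atg16l1 (which places the ATG12-ATG5 conjugate on the membrane) were not called in any comparison as analysed. Atg3 had the largest spermidine difference of these 4, 0.36 (95% interval 0.08 to 0.64, adjusted p = 0.091), and it was called without R837 replicate 3 (0.49, adjusted p = 0.024). Without the same library Atg3 was also called lower in R837 against control (-0.34, adjusted p = 0.033), against -0.21 (adjusted p = 0.20) as analysed.

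**Figure D3:**
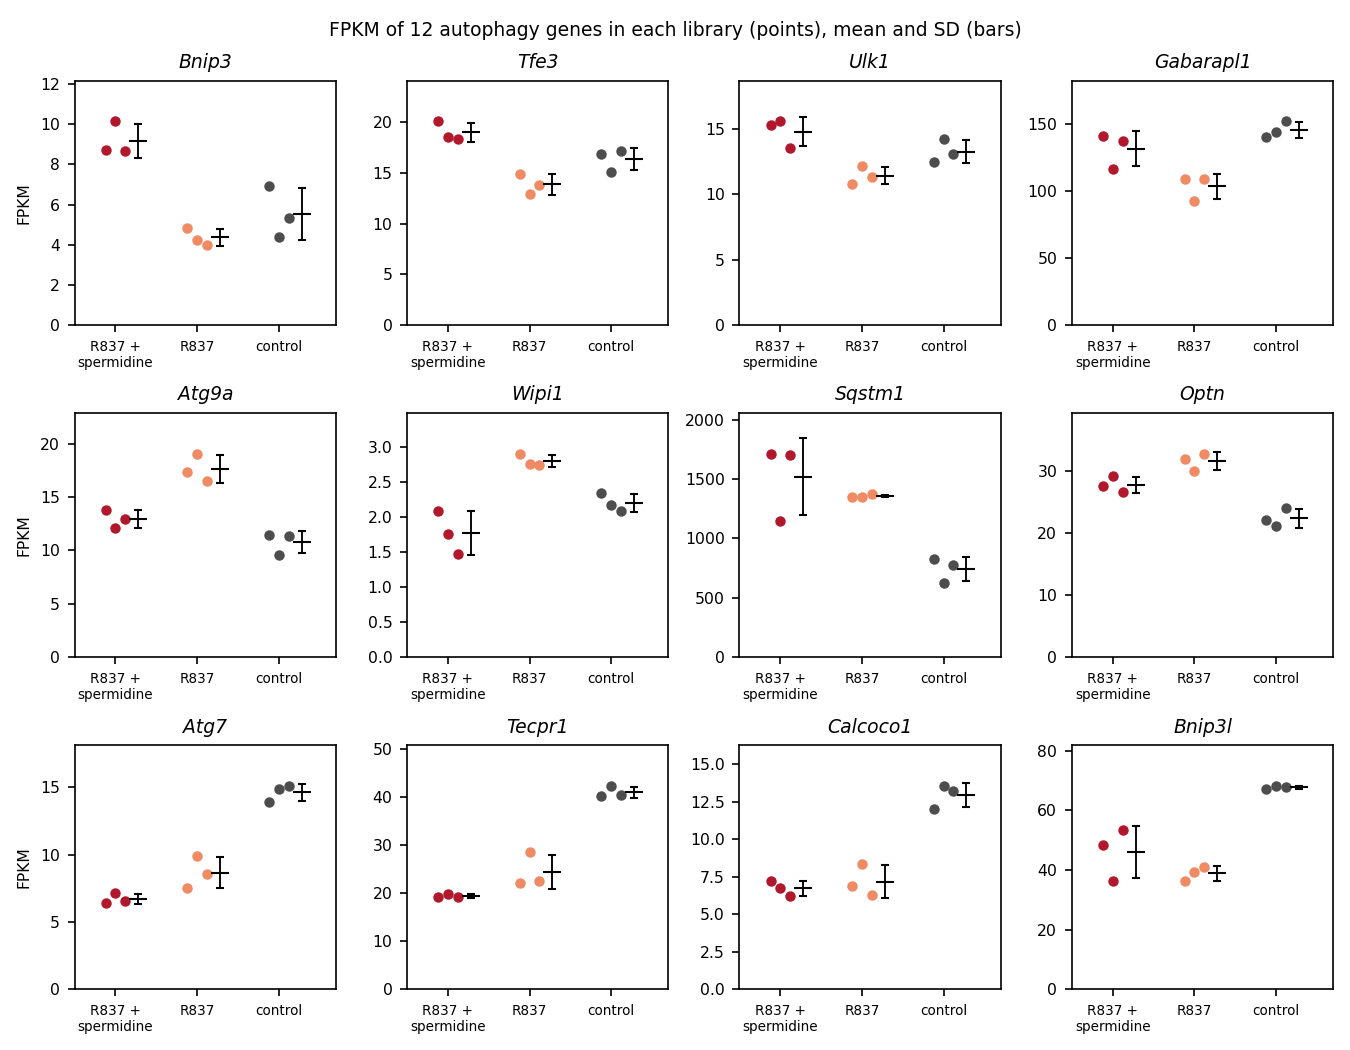
FPKM (vertical axis, from 0) of 12 autophagy genes in each library (points) with the mean and SD of each group (bars; n = 3). Bnip3, Tfe3, Ulk1 and Gabarapl1 are higher and Atg9a and Wipi1 lower in R837 + spermidine than in R837 libraries, Sqstm1 and Optn are above control in both treated groups, and Atg7, Tecpr1, Calcoco1 and Bnip3l are below control in both.

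The ATG8 transcripts were dominated by the GABARAP branch. Summed over the 5 genes they reached 366 ± 21.04 FPKM with R837 + spermidine, 317 ± 49.2 FPKM with R837 and 394 ± 16.8 FPKM in control (SD, n = 3 each). Gabarap made up 49.1%, 51.8% and 48.3% of that sum and Gabarapl1 35.9%, 32.8% and 36.9%, in the same order of groups. The proportions moved by less than the spread between the R837 libraries, in which Gabarap ranged from 45.0% to 56.7%. The lowest sum, 262 FPKM, was that of R837 replicate 2.

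Gabarapl1 had 141, 116 and 137 FPKM with R837 + spermidine, 109, 92.5 and 109 FPKM with R837, and 140, 144 and 152 FPKM in control. The R837 libraries were below all the others. The rise with spermidine was 0.34 ± 0.10 (log2, SE; limma adjusted p = 0.047), and of the 6 member calls with spermidine it was lost under the most alternatives. It was lost in 11 of 18 alternatives, including without any one library other than R837 + spermidine replicate 2, with differences between 0.27 and 0.38 and adjusted p up to 0.15. Relative to control Gabarapl1 fell by 0.49 with R837 (limma adjusted p = 0.0033), a call kept in all 18. Gabarapl1 (chromosome 6 from 129533160 to 129542346) shares 570 exon bases with 1700101I11Rik on the other strand, which ranged from 19.3 to 28.3 FPKM and was not called in any comparison.

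Map1lc3b, the LC3B gene most used to follow autophagosomes, had 20.9, 31.2 and 22.1 FPKM with R837 + spermidine, 17.3, 19.4 and 17.2 FPKM with R837, and 22.3, 21.6 and 21.1 FPKM in control. Each R837 + spermidine library was above each R837 library, with replicate 2 well above the rest. The difference of 0.42 (95% interval 0.11 to 0.72) had a limma adjusted p of 0.075, and it was 0.24 without R837 + spermidine replicate 2. Map1lc3b in R837 against control was -0.26 (adjusted p = 0.15). Without R837 + spermidine replicate 2, which changes only the shared estimate of spread and the genes tested, the adjusted p was 0.028. Map1lc3a had 15.7, 12.5 and 14.5 FPKM with R837 + spermidine, 15.3, 17.4 and 14.5 FPKM with R837, and 18.8, 20.1 and 20.5 FPKM in control. The R837 + spermidine and R837 libraries overlapped below the control range. Map1lc3a fell by 0.45 in R837 + spermidine (limma adjusted p = 0.0054) and by 0.32 in R837 (limma adjusted p = 0.029) relative to control, or by 0.26 and 0.14 with median-of-ratios scaling, where neither was called. The R837 call was also lost without R837 replicate 1 (-0.30) or 3 (-0.26) or control replicate 2 (-0.31) or 3 (-0.29).

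Gabarapl2 (GATE-16) had 14.1, 15.0 and 17.8 FPKM with R837 + spermidine, 12.7, 14.8 and 14.2 FPKM with R837, and 17.7, 16.9 and 16.4 FPKM in control. Its R837 libraries were all below control. The fall of 0.28 (limma adjusted p = 0.047) was lost in 12 alternatives, among them without R837 replicate 1 (-0.22) or 3 (-0.29), R837 + spermidine replicate 2 (-0.28) or any one control library (-0.25, -0.28 and -0.30). Gabarapl2 has 3 processed pseudogenes with at least 95% identity, each at most 1.60 FPKM. Gabarap ranged from 118 to 202 FPKM and was not called, with a spermidine difference of 0.14 that became -0.08 without R837 replicate 2.

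**Figure D4:**
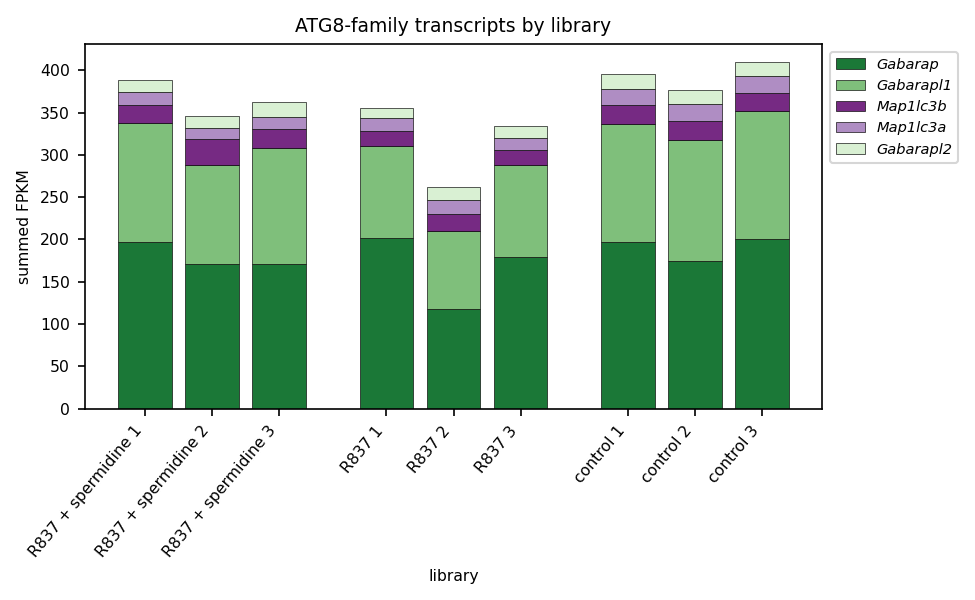
Summed FPKM of the 5 ATG8-family genes (vertical axis, stacked bars from 0) in each of the 9 libraries. Gabarap and Gabarapl1 make up most of every bar, and R837 replicate 2 has the lowest sum, 262 FPKM.

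The cargo receptors held both the highest transcript of the set and its largest response to spermidine. Bnip3 encodes a receptor of the outer mitochondrial membrane that binds LC3 and is known as a target of hypoxia signalling. It had 8.74, 10.1 and 8.65 FPKM with R837 + spermidine, 4.85, 4.24 and 4.01 FPKM with R837, and 6.91, 4.36 and 5.35 FPKM in control. The R837 + spermidine libraries were above all the others, and R837 overlapped with control. Bnip3 was 2.10-fold R837 by group means, a log2 difference of 0.92 ± 0.14 (SE; limma adjusted p = 0.0038; 95% interval 0.61 to 1.24). It was also above control, by 0.65 (limma adjusted p = 0.0048). The difference from R837 was 0.91 without R837 replicate 2 and 0.88 without R837 replicate 3, and it was called in all 18 alternatives.

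Bnip3 (chromosome 7 from 138890836 to 138909519) overlaps the antisense gene Gm45507 by 504 exon bases. Gm45507 had 3.80, 3.91 and 3.26 FPKM with R837 + spermidine, 2.06, 1.33 and 2.10 FPKM with R837, and 2.43, 4.19 and 3.37 FPKM in control. It was itself called higher with spermidine (0.73, limma adjusted p = 0.023), a call lost without any one R837 + spermidine library (0.71, 0.69 and 0.79). Since strand use in the counting is not given, reads of the pair cannot be told apart where they overlap. In addition 2 processed pseudogenes of Bnip3 with over 95% identity were listed, at no more than 0.388 FPKM.

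Sqstm1 (p62), the receptor that links ubiquitin to LC3, was the most abundant member. It had 1714, 1150 and 1701 FPKM with R837 + spermidine, 1351, 1350 and 1370 FPKM with R837, and 828, 628 and 774 FPKM in control. All 6 treated libraries were above all control libraries, and R837 + spermidine replicate 2 was below every R837 library. Sqstm1 was 2.05-fold control with R837 + spermidine (log2 difference 1.02, limma adjusted p = 0.00090) and 1.83-fold control with R837 (0.88, limma adjusted p = 0.0021), and both calls were kept in all 18 alternatives. The spermidine difference was 0.14 (95% interval -0.22 to 0.50). Sqstm1 alone made up 62.8% of the summed FPKM of the 41 genes with R837 + spermidine and 63.2% with R837, against 42.2% in control. The other 40 genes summed to 882 ± 19.1 FPKM with R837 + spermidine and 791 ± 57.9 FPKM with R837, against 1012 ± 22.2 FPKM in control (SD, n = 3 each). Sqstm1 (chromosome 11 from 50199366 to 50210827) overlaps Mrnip on the other strand, which was at most 1.44 FPKM.

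Optn (optineurin), which binds ubiquitin on mitochondria and bacteria, had 27.4, 29.1 and 26.5 FPKM with R837 + spermidine, 31.9, 29.9 and 32.7 FPKM with R837, and 22.0, 21.01 and 24.0 FPKM in control. The 3 groups did not overlap. Optn rose by 0.30 in R837 + spermidine (limma adjusted p = 0.011) and by 0.48 in R837 (limma adjusted p = 0.00099) relative to control. The R837 + spermidine call was lost without control replicate 2 (0.26, adjusted p = 0.054), and the spermidine difference of -0.18 was not called (adjusted p = 0.15).

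The other ubiquitin-related and reticulum receptors were below control. Calcoco1, a receptor for the endoplasmic reticulum and Golgi, had 7.23, 6.76 and 6.22 FPKM with R837 + spermidine, 6.91, 8.38 and 6.27 FPKM with R837, and 12.0, 13.5 and 13.2 FPKM in control. The treated groups overlapped with each other and not with control. Calcoco1 fell by 0.85 in R837 + spermidine (limma adjusted p = 0.00026) and by 0.77 in R837 (limma adjusted p = 0.00040) relative to control, and both calls were kept in all 18 alternatives. Tax1bp1, an adaptor for ubiquitin-marked cargo, had 38.9, 44.1 and 40.0 FPKM with R837 + spermidine, 35.9, 26.9 and 38.1 FPKM with R837, and 48.7, 47.4 and 47.8 FPKM in control. All 6 treated libraries were below control, R837 replicate 2 furthest. Tax1bp1 fell by 0.51 in R837 against control (limma adjusted p = 0.0079), by 0.37 without R837 replicate 2, and by 0.33 with median-of-ratios scaling, where it was not called (adjusted p = 0.062). Nbr1, a receptor related to p62, had 19.7, 15.4 and 15.2 FPKM with R837 + spermidine, 18.8, 13.2 and 18.5 FPKM with R837, and 24.3, 19.8 and 24.5 FPKM in control. No treated library reached the lowest control library. The differences from control were -0.43 in both comparisons, with limma adjusted p of 0.047 for R837 + spermidine and 0.0499 for R837, and these calls were lost in 11 and 13 of 18 alternatives. The R837 + spermidine call was lost without R837 + spermidine replicate 2 (-0.38) or 3 (-0.37), R837 replicate 3 (-0.43) or control replicate 1 or 3 (-0.38 each). The R837 call was lost without R837 + spermidine replicate 2 or 3 (-0.43 each), R837 replicate 2 (-0.27) or 3 (-0.50), or control replicate 1 (-0.39) or 3 (-0.38).

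The remaining mitophagy receptors were not called with spermidine as analysed. Bnip3l (NIX), its paralog, had 48.3, 36.5 and 53.3 FPKM with R837 + spermidine, 36.2, 39.4 and 40.99 FPKM with R837, and 67.1, 68.1 and 67.7 FPKM in control. All treated libraries were below control. R837 + spermidine replicates 1 and 3 were above the R837 range, and replicate 2 was within it. Bnip3l fell by 0.56 in R837 + spermidine (limma adjusted p = 0.0057) and by 0.79 in R837 (limma adjusted p = 0.00097) relative to control. Bnip3l is also known from maturing red cells, and a part of such cells in its values was not tested. The R837 difference was -0.80 without R837 replicate 2 and -0.83 without R837 replicate 3. Each of these fits keeps the other library with haemoglobin transcripts. The spermidine difference was 0.22 (adjusted p = 0.27), and 0.38 (adjusted p = 0.039) without R837 + spermidine replicate 2. The pseudogene Bnip3l-ps, 99.2% identical over the aligned bases, was at most 3.17 FPKM. Fundc1, another outer membrane receptor, had 4.10, 3.97 and 3.32 FPKM with R837 + spermidine, 3.19, 2.04 and 4.06 FPKM with R837, and 4.39, 5.11 and 4.86 FPKM in control. The treated groups overlapped below the control range. Its fall in R837 against control (-0.53, limma adjusted p = 0.032) was lost in 9 alternatives, among them without R837 replicate 1 (-0.56) or any one control library (-0.58, -0.49 and -0.52), and was -0.33 without R837 replicate 2, where it was still called.

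Tecpr1 and Epg5 encode tethers that join autophagosomes to lysosomes. Tecpr1 had 19.2, 19.8 and 19.2 FPKM with R837 + spermidine, 22.2, 28.6 and 22.6 FPKM with R837, and 40.2, 42.3 and 40.4 FPKM in control. The 3 groups did not overlap. Tecpr1 fell by 1.04 in R837 + spermidine (limma adjusted p = 4.3e-05) and by 0.73 in R837 (limma adjusted p = 0.00030) relative to control, and both calls were kept in all 18 alternatives. The spermidine difference was -0.31 (adjusted p = 0.065), or -0.20 (adjusted p = 0.045) without R837 replicate 2. Epg5 had 5.56, 6.64 and 5.90 FPKM with R837 + spermidine, 7.31, 7.70 and 6.93 FPKM with R837, and 7.75, 8.99 and 8.31 FPKM in control. The R837 + spermidine libraries were the lowest. Epg5 fell by 0.41 in R837 + spermidine against control (limma adjusted p = 0.0048), or by 0.24 with median-of-ratios scaling, where it was not called.

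Of the transcription factors, Tfe3 rose with spermidine and Tfeb did not pass the test in any comparison. Tfe3 had 20.1, 18.5 and 18.4 FPKM with R837 + spermidine, 14.9, 12.9 and 13.8 FPKM with R837, and 16.9, 15.1 and 17.1 FPKM in control. The R837 + spermidine libraries were above all control libraries, and those above all R837 libraries. The rise over R837 was 0.43 ± 0.08 (log2, SE; limma adjusted p = 0.011), with 0.38 without R837 replicate 2 and 0.43 without R837 replicate 3, and it was called in all 18 alternatives. Against control the R837 + spermidine difference was 0.20 (adjusted p = 0.071), and it was called with median-of-ratios scaling (0.39, adjusted p = 0.0058). It was also called without R837 replicate 2 (adjusted p = 0.038), which changes only the shared estimate of spread and the genes tested. Tfe3 lies on chromosome X from 7762560 to 7775202. Tfeb had 8.63, 8.43 and 8.09 FPKM with R837 + spermidine, 9.58, 10.9 and 5.72 FPKM with R837, and 10.5, 10.6 and 11.2 FPKM in control. R837 replicate 3 was the lowest of the 9 libraries, and the spermidine difference was -0.01 (95% interval -0.42 to 0.39). Tfeb in R837 against control was -0.31 (adjusted p = 0.19), with -0.48 (adjusted p = 0.042) without R837 replicate 2 and -0.07 without R837 replicate 3. Against control the R837 + spermidine difference was -0.33 (adjusted p = 0.16). Without R837 replicate 3, which changes only the shared estimate of spread and the genes tested, its adjusted p was 0.0094.

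**Figure D5:**
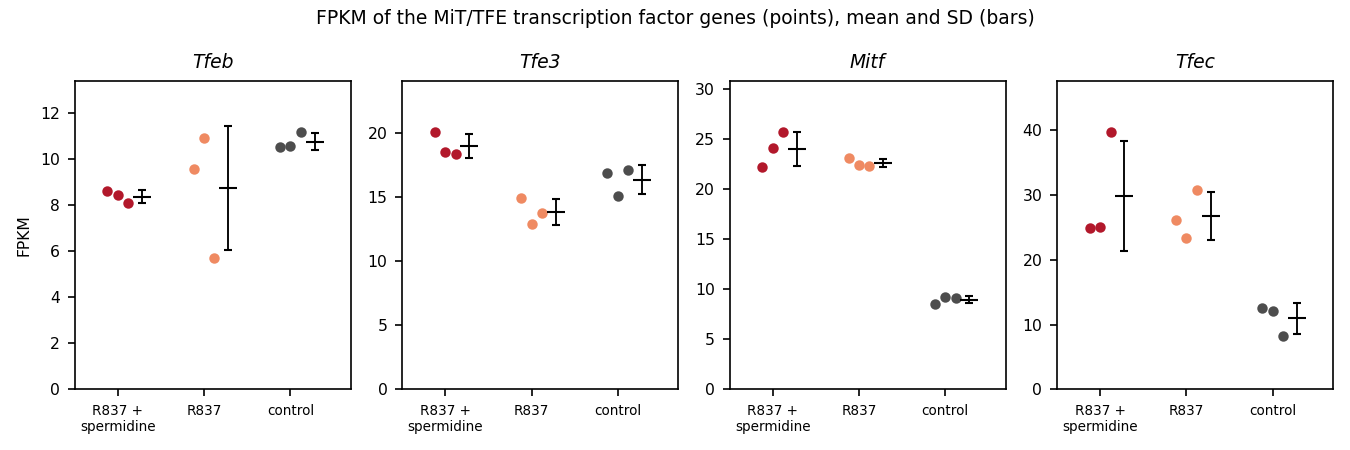
FPKM (vertical axis, from 0) of the 4 MiT/TFE transcription factor genes in each library (points) with the mean and SD of each group (bars; n = 3). Tfe3 is highest with R837 + spermidine, while Mitf and Tfec are above control in all 6 treated libraries.

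A further 90 genes of the pathway and its regulators were examined in 5 lists, and 86 were tested. With spermidine relative to R837, 5 of the 86 (5.81%) were called higher and 2 (2.33%) lower, beside 5.60% and 8.00% of all tested genes, at a median difference of -0.00 beside -0.02 for all tested genes. In R837 against control, 7 (8.14%) were called higher and 32 (37.2%) lower, beside 13.6% and 29.5% of all tested genes, at a median of -0.22 beside -0.17. With median-of-ratios scaling the counts were 8 and 17 of the 86, beside 2135 and 1941 of the 11768 tested genes. In R837 + spermidine against control, 6 (6.98%) were called higher and 34 (39.5%) lower, beside 14.1% and 32.7% of all tested genes. With that scaling the counts were 13 and 15, beside 2395 and 2168 of the 11768 tested genes.

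Fusion genes gave 3 rises of 13 (23.1%, beside 5.60% of all tested genes) and no fall (beside 8.00%) with spermidine. The genes were Snap29 and Ykt6, SNAREs of autophagosome fusion, and Plekhm1, a RAB7 adaptor. Snap29 had 21.6, 25.4 and 23.7 FPKM with R837 + spermidine, against 17.6, 11.2 and 18.1 FPKM with R837 (log2 difference 0.59, limma adjusted p = 0.040). Plekhm1 had 59.5, 60.7 and 58.6 FPKM with R837 + spermidine, against 46.5, 52.7 and 45.6 FPKM with R837 (0.30, limma adjusted p = 0.025). Ykt6 had 57.7, 60.5 and 62.4 FPKM with R837 + spermidine, against 49.4, 51.7 and 48.5 FPKM with R837 (0.27, limma adjusted p = 0.045). In control, Snap29 had 21.6, 21.6 and 20.6 FPKM, Plekhm1 84.0, 83.7 and 83.9 FPKM, and Ykt6 53.5, 49.0 and 46.4 FPKM. The R837 + spermidine libraries overlapped with control for Snap29, lay below it for Plekhm1 and above it for Ykt6. In each gene the R837 + spermidine and R837 libraries did not overlap. The spermidine calls of Snap29, Plekhm1 and Ykt6 were lost in 10, 7 and 12 alternatives, including without any one R837 + spermidine library, where the differences were between 0.24 and 0.64. They were also lost without any one control library for Snap29 (0.59) and Ykt6 (0.27), without control replicate 2 for Plekhm1 (0.30), and without R837 replicate 1 or 3 for Plekhm1 (0.28 and 0.26) and Ykt6 (0.26 and 0.25). Without R837 replicate 2, Snap29 had a difference of 0.38 and was called. In R837 against control 8 of the 13 (61.5%, beside 29.5% of all tested genes) fell and none rose. With median-of-ratios scaling 2 of the 13 fell, beside 1941 of the 11768 tested genes.

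Selective autophagy genes gave 1 rise of 17 (5.88%, beside 5.60% of all tested genes) and no fall (beside 8.00%) with spermidine. The list was chosen with earlier results of these data known, so its 1 rise is a description and not independent support. The gene was Trp53inp1, a p53-induced protein that binds ATG8 proteins. It had 3.88, 4.86 and 5.59 FPKM with R837 + spermidine, 1.94, 1.31 and 2.08 FPKM with R837, and 5.09, 4.97 and 5.43 FPKM in control. The R837 libraries were below all the others, while R837 + spermidine and control overlapped. The rise over R837 was 1.06 (limma adjusted p = 0.0019) and was called in all 17 alternatives that tested the gene. Trp53inp1 in R837 against control, which rests on the same R837 libraries, was -1.16 (limma adjusted p = 0.00016). In that comparison 2 of the 17 (11.8%, beside 13.6% of all tested genes) rose and 9 (52.9%, beside 29.5%) fell. With median-of-ratios scaling 2 rose and 6 fell, beside 2135 and 1941 of the 11768 tested genes.

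Among the nutrient-sensing genes, 1 of 32 tested (3.12%) rose and 2 (6.25%) fell with spermidine, beside 5.60% and 8.00% of all tested genes. Stk11 (LKB1, the kinase that activates AMPK) had 8.18, 8.48 and 8.23 FPKM with R837 + spermidine, against 12.6, 11.2 and 10.2 FPKM with R837 (-0.40, limma adjusted p = 0.017). Nprl3, a subunit of the GATOR1 inhibitor of mTORC1, had 1.18, 1.63 and 1.502 FPKM with R837 + spermidine, against 2.27, 2.47 and 1.98 FPKM with R837 (-0.41, limma adjusted p = 0.036). Fnip2, a folliculin partner, had 126, 139 and 128 FPKM with R837 + spermidine, against 105, 109 and 109 FPKM with R837 (0.28, limma adjusted p = 0.025). The R837 + spermidine and R837 libraries did not overlap in any of the 3 genes. In control, Stk11 had 13.0, 12.4 and 11.8 FPKM, Nprl3 1.89, 2.27 and 2.23 FPKM, and Fnip2 146, 154 and 153 FPKM. For all 3 genes the R837 + spermidine libraries lay below every control library. Stk11, Nprl3 and Fnip2 lost their calls in 4, 9 and 5 alternatives, each of them without R837 + spermidine replicate 2 or 3, where the differences were -0.42 and -0.40 for Stk11, -0.47 and -0.43 for Nprl3, and 0.24 and 0.29 for Fnip2. The calls of Stk11 (-0.39) and Nprl3 (-0.33) were also lost without R837 + spermidine replicate 1, those of Nprl3 (-0.40) and Fnip2 (0.26) without R837 replicate 1, and that of Nprl3 without R837 replicate 2 (-0.36). Without control replicate 2, Nprl3 (-0.41) and Fnip2 (0.28) lost theirs, as did Nprl3 without control replicate 3 (-0.41). In R837 against control 11 of the 32 (34.4%, beside 29.5% of all tested genes) fell and none rose. With median-of-ratios scaling 6 of the 32 fell, beside 1941 of the 11768 tested genes.

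The 12 further core genes and the 12 regulators of transcription and acetylation held no call with spermidine, where 13.6% of all tested genes were called. Against control the regulators gave 3 rises (25.0%, beside 13.6% of all tested genes) and 1 fall (8.33%, beside 29.5%) with R837. Mitf, the melanocyte and macrophage relative of TFE3, had 22.2, 24.1 and 25.7 FPKM with R837 + spermidine, 23.1, 22.4 and 22.3 FPKM with R837, and 8.53, 9.24 and 9.11 FPKM in control. Tfec, the fourth member of the family, had 24.8, 25.1 and 39.6 FPKM with R837 + spermidine, 26.1, 23.3 and 30.7 FPKM with R837, and 12.6, 12.1 and 8.19 FPKM in control. Both were above control in all 6 treated libraries, by 1.24 (limma adjusted p = 2.1e-06) for Mitf and 1.22 (limma adjusted p = 0.0015) for Tfec in R837. The treated groups overlapped, with spermidine differences of 0.08 for Mitf and 0.13 for Tfec. Foxo3, a forkhead factor of autophagy genes, had 6.04, 6.64 and 6.13 FPKM with R837 + spermidine, 5.68, 5.99 and 5.62 FPKM with R837, and 11.2, 12.3 and 12.3 FPKM in control, a fall of 0.93 in R837 (limma adjusted p = 1.3e-05). These calls of Mitf, Tfec and Foxo3 in R837 were kept in all 18 alternatives. In the core list 2 of 12 (16.7%) rose and 3 (25.0%) fell in R837 against control, with the largest differences in Ei24 (-0.83, limma adjusted p = 0.0043), Wdr45 (-0.55, limma adjusted p = 0.0037) and Nrbf2 (0.39, limma adjusted p = 0.027, a call lost in 5 alternatives, among them without R837 replicate 2 (0.31) or 3 (0.39) or control replicate 1 (0.41) or 2 (0.31)).

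Promoter sequence was available from RefSeq (GRCm38.p6) for 33 of the 41 genes, as 250 bases before to 50 after the start. The palindromic motif CACGTG, the core bound by MiT/TFE factors, was found in 6 of the 33 (18.2%; Atg14, Rubcn, Atg3, Atg5, Atg7 and Bnip3), beside 8.09% of all 27025 genes in the table. The longer palindrome TCACGTGA, which contains it, was in 1 (3.03%; Atg3), beside 1.12%. The antioxidant response element core TGACNNNGC, read on both strands, was in 5 (15.2%; Ulk2, Atg13, Map1lc3b, Tax1bp1 and Vmp1), beside 14.0%. A match describes these letters only, and no binding was measured. The 250 bases before the start are shown for the member with the largest rise with spermidine, the member with the largest rise in R837 outside the receptors, the most abundant receptor and the E1-like enzyme gene that was lowest with R837 + spermidine, each 5′ to 3′ on the gene's strand. Capitals mark CACGTG, whose first base lies 108 bases before the start in Bnip3 and 132 bases before it in Atg7.
Bnip3, chr7:138909507-138909756, minus strand: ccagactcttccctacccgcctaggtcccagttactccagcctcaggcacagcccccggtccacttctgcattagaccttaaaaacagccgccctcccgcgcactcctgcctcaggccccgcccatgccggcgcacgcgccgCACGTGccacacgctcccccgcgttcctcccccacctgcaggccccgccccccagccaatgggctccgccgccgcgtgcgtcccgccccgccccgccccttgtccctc
Atg9a, chr1:75192011-75192260, minus strand: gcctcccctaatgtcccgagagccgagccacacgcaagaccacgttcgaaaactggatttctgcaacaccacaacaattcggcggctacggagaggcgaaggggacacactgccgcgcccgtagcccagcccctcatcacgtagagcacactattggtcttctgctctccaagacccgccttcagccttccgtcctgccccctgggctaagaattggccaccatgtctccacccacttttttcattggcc
Sqstm1, chr11:50210821-50211070, minus strand: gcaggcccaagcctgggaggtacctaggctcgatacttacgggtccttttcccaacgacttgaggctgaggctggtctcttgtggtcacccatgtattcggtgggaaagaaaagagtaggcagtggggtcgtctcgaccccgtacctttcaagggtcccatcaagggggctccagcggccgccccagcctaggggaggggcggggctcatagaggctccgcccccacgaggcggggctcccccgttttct
Atg7, chr6:114670846-114671095, plus strand: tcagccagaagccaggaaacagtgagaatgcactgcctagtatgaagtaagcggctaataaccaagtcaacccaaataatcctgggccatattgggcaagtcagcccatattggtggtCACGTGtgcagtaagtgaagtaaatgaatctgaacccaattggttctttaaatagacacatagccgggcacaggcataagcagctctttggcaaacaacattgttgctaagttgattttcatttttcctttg
None of the 3 motifs was found in the Atg9a and Sqstm1 windows. Of these windows 72.4% of the bases were G or C in Bnip3, 58.8% in Atg9a, 63.2% in Sqstm1 and 43.2% in Atg7. The RefSeq starts of Bnip3, Atg9a, Sqstm1 and Atg7 used here lie inside the GENCODE genes of those names. So do the starts behind the CACGTG matches of Atg14, Rubcn and Atg3. The Atg7 window lies wholly inside its gene, which begins at 114643097. These starts may not be the ones used in these cells.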

How the data were processed

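The authors deposited 1 table of FPKM values per library (fragments scaled by length and depth), with versioned Ensembl gene identifiers, per the file headers. The submitters' processing notes list the tools HISAT2 and StringTie with no version, and 2 builds, mm8 and mm10, with no role stated. Neither annotation nor filters nor strand use are given in the sources used here. Of 52550 identifiers, 52403 matched GENCODE mouse release 21 (GRCm38) without their version, which gave symbols and positions. Where a symbol had several identifiers (73 symbols), their values were added. All 37 mitochondrial genes were listed at 0.

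The files hold no counts, so no count test was run. Depth was estimated from the steps of low FPKM values multiplied by transcript length. Only 35.1% to 40.9% of low values were whole multiples of the step within 0.05, so it is approximate. A gene was kept if 3 or more of the 9 libraries reached an FPKM of 1 (11768 genes). All 9 libraries entered 1 limma fit (limma 3.58.1, R 4.3.3) on log2(FPKM + 1), with a mean-variance trend, 3 two-sided contrasts and Benjamini-Hochberg adjustment over all tested genes at 0.05. Differences on this scale understate the change of low genes. The fit was tested on simulated data.

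The 41 members, their role groups and the 5 other lists were chosen with earlier results of these data known. Every member called in any contrast is given in every library. From each other list up to 3 genes are named, those with the largest called differences with spermidine, or else with R837. Gm45507 and other overlapping genes were named after their values were seen. Alternatives were a pseudocount of 0.1, no filter, a mean FPKM of at least 5, TPM, median-of-ratios and quantile scaling, no trend, a replicate block, each library left out, and only the 2 groups compared. Leaving out a library of the group outside a comparison leaves its difference unchanged. It acts through the shared estimate of spread and the genes tested.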

Additional observations from a re-analysis of the deposited data

How the results depend on the processing

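No call of a member changed direction in any of the 18 alternatives. Of the members' called differences, 638 comparisons with an alternative kept the call and 132 lost it, and of the uncalled ones 46 became called. With median-of-ratios scaling the falls in R837 against control numbered 8, beside 1941 of the 11768 tested genes. R837 + spermidine against control then had 8 rises and 6 falls, beside 2395 and 2168 of all tested genes. Quantile normalization gave 7 rises there, beside 2133 of all tested genes. With only the 2 groups compared, 2 members rose and 1 fell with spermidine relative to R837. Leaving out 1 library at a time gave 2 to 4 rises and 0 to 3 falls with spermidine relative to R837, 3 rises throughout and 12 to 20 falls in R837 against control, and 2 to 6 rises and 9 to 15 falls in R837 + spermidine against control. Without R837 + spermidine replicate 2 or 3 no member was called lower with spermidine. For these ranges and the fit of only 2 groups, all-gene counts are not given. These counts therefore do not show a change particular to the members. Without R837 replicate 2 there were 3 rises and 3 falls with spermidine, beside 735 and 905 of 11680 tested genes. Without R837 replicate 3 there were 3 and 2, beside 704 and 811 of 11648. Fewer libraries also leave fewer residual degrees of freedom. Same-numbered libraries did not deviate together (correlations between -0.09 and 0.16), so the numbers were not taken to pair them. With the replicate block the members had 3 rises and 17 falls in R837 against control, beside 1541 and 3272 of the 11768 tested genes. They had 4 and 2 with spermidine relative to R837, beside 470 and 661. In R837 + spermidine against control they had 3 and 12, beside 1607 and 3638. Members near 2 FPKM (Wipi1, Atg10) carry the largest counting error.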
